A study of Rattus norvegicus with 2 samples.

Results

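Gria2, Nrgn, Adh6 and Isyna1 are 4 of the 32623 genes in count tables from the cochlear duct of Sprague-Dawley rats. They were followed in cells in which Otor made up at least 1% of the transcripts, called Otor-high cells here. Each gene has 1 entry in both tables, under ENSRNOG00000054204 (Gria2), ENSRNOG00000010688 (Nrgn), ENSRNOG00000012436 (Adh6) and ENSRNOG00000019741 (Isyna1). The genes were picked because their levels in Otor-high cells had been seen to be lower at postnatal day 7 (P7) than at postnatal day 1 (P1), so the fall itself is a description and carries no test. A single 10x Genomics 3' library was made at each age. Each library, per the study's methods, pooled 40 rats, and no treatment or transgene was involved. The stria vascularis, spiral ligament and spiral ganglion were separated from the duct by microdissection before the remaining tissue was dissociated. With 1 library per age, the age, the dissection and the library cannot be told apart, and every interval below covers counting error only.

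After limits on genes and mitochondrial share, 12779 of 14068 barcodes were kept at P1 and 12581 of 14501 at P7, with medians of 6565 and 6878 unique transcript counts (UMIs) per cell, and 60 barcodes occurred in both libraries. Otor-high cells numbered 3218 at P1 (25.2% of cells, median 6678.5 UMIs) and 2660 at P7 (21.1%, median 8171 UMIs). The remaining cells were classed by marker genes, and the class sizes at P1 and P7 were 309 and 18 neurons, 154 and 178 endothelial cells, and 1701 and 3743 glia. Otor-high cells carried Crym at 5458 UMIs per 1000000 UMIs of the class (CPM) at P1 and 4892 at P7, against 498 and 431 in glia, and the cartilage collagen Col9a1 at 2502 and 4905 CPM, against 366 and 724 in glia. Coch, a defining secreted protein of spiral ligament fibrocytes, stood at 265 and 151 CPM. The related collagen gene Col9a2 stood at 1100 and 2335 CPM in Otor-high cells, but also at 2196 and 1864 CPM in the epithelial class. Other genes of the fibrocyte list were low at P1. Car3 stood at 7.25 CPM at P1 and 338 at P7, Emilin2 at 7.99 and 5.76, and Slc12a2 at 60.1 and 51.6. The 10 genes of that list, Otor included, summed at P1 to 27648 CPM in Otor-high cells and 2843 CPM in glia. They summed to 7744 CPM in mesenchymal cells with little Otor and 10352 CPM in cells that met no class rule. Otor itself gave 16855, 902, 2699 and 4230 CPM of these sums, in that order. Otor-high cells were not uniform. In their cluster P1-5 (clusters are described below) Crym was 299, S100b 155 and Coch 21.7 CPM. Cells of the library are labelled as greater epithelial ridge cells, an epithelial cell type, but the 9 epithelial markers summed to only 9.23 CPM at P1 and 19.4 CPM at P7 in Otor-high cells. The ridge marker Tecta stood at 5.52 and 7.44 CPM there, against 479 and 452 CPM in the epithelial class. The whole list of 8 ridge genes summed to 212 CPM at P1 and 784 CPM at P7 in Otor-high cells, of which Dcn, a proteoglycan gene also used by connective tissue, gave 129 and 564 CPM. The study assigned a part of its clusters to the ridge. By fluorescence in situ hybridization it also reported Otor as high in the ridge and almost limited to it at P1, and lower there at P7. The RNA levels given here do not place cells in the tissue, and where the Otor-high cells lay was not tested.

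Spiral ligament fibrocytes are connective tissue cells of the lateral wall that take part in returning potassium to the endolymph, and they mature during the days before hearing begins. Otor encodes a small secreted protein made by cochlear connective tissue. Gria2 encodes a subunit of AMPA-type glutamate receptors, the channels that carry fast excitatory transmission, and the edited form of this subunit keeps calcium out of the channel. Nrgn encodes neurogranin, a small protein known from forebrain neurons that binds calmodulin when calcium is low. Adh6 encodes a class of alcohol dehydrogenase, and Isyna1 encodes inositol-3-phosphate synthase, the rate-limiting enzyme that makes inositol from glucose 6-phosphate.

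The sequence upstream of the transcription start is shown for the members held in the RefSeq promoter table, because the genes fell together and were found in the same cells. The table held 3 of the 4 members, and Gria2 was not among them. Each line gives the 250 bases before the start on the gene's own strand in the GRCr8 assembly, and the capitals mark every match on either strand to CCAAT (the core bound by NF-Y), TATAAA (the TATA box), GGGCGG (a core bound by Sp1) or CANNTG (the E-box). The windows are chr8:45452418-45452667 on the minus strand for Nrgn, chr2:229576386-229576635 on the plus strand for Adh6 and chr16:18875956-18876205 on the minus strand for Isyna1.
Nrgn: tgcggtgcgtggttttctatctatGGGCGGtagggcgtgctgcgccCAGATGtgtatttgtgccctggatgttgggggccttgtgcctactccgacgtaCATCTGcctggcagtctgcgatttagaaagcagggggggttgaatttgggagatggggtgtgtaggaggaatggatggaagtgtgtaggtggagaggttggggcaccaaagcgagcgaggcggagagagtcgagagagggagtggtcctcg
Adh6: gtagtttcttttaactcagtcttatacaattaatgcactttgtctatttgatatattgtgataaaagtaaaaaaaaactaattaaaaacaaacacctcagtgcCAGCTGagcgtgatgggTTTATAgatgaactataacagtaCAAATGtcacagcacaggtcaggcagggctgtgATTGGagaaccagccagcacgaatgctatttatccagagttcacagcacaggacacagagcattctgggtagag
Isyna1: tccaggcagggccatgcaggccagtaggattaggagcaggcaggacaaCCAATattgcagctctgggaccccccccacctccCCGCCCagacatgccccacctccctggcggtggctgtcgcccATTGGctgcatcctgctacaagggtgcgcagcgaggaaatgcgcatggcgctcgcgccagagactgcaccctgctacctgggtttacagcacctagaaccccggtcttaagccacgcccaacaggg

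CCAAT was present in the Adh6 and Isyna1 windows and in 34% of the 33469 promoters of the table. GGGCGG was present in the Nrgn and Isyna1 windows and in 30.5% of all promoters. CANNTG was present in the Nrgn and Adh6 windows, with 2 matches each, and in 65.5% of all promoters. TATAAA was present in the Adh6 window alone, on the strand opposite to the gene (TTTATA as printed), 130 bases before the start. It was present in 12.9% of all promoters. GC content was 58% for Nrgn, 38.8% for Adh6 and 64% for Isyna1, and none of the 4 motifs occurred in all 3 windows.

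All 4 genes were lower at P7 in Otor-high cells. Over the 7880 genes with at least 10 CPM at either age, 416 (5.28%) were lower by a log2 ratio of at least 1 and 884 (11.2%) were higher, and the median log2 ratio of all tested genes was 0.17. All 4 members belonged to the 416, as the way they were chosen requires. Ordered from the largest fall, Gria2 was at rank 1, Nrgn at rank 2, Adh6 at rank 4 and Isyna1 at rank 16 of the 7880 genes.

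Gria2 gave 1890 UMIs in P1 Otor-high cells and 59 at P7. These are 77.8 CPM (95% Poisson interval 74.4 to 81.4) and 2.54 CPM (1.93 to 3.27), a log2 ratio of -4.94 (-5.34 to -4.57). A Gria2 UMI was present in 14.7% of Otor-high cells at P1 (26.6% where Otor made up at least 2% of the UMIs) and in 1.77% at P7. The same share in glia, which served as the reference for free RNA, was 2.06% at P1 and 0.775% at P7, with median depths of 5372 and 5445 UMIs. After each cell was thinned to 2000 UMIs, which left out 18 P1 and 84 P7 Otor-high cells and 20 and 105 glia, the shares were 8.56% and 0.427% in Otor-high cells and 0.892% and 0.302% in glia. The P7 intervals overlapped after thinning (0.213% to 0.763% in Otor-high cells, 0.151% to 0.540% in glia), so the P7 share of Otor-high cells could not be set above that of glia at equal depth. Without thinning the P7 intervals did not overlap, with 1.30% to 2.34% of Otor-high cells and 0.519% to 1.11% of glia, and the summed level in glia was 1.21 CPM (0.819 to 1.71). The number of UMIs per positive cell was lower as well. At P1, 153 cells carried 5 to 14 UMIs and 9 more at least 15, while no P7 cell exceeded 3.

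Nrgn gave 1569 UMIs at P1 and 73 at P7, or 64.6 CPM (61.5 to 67.9) and 3.14 CPM (2.46 to 3.95), and the log2 ratio was -4.36 (-4.72 to -4.03). It was found in 12.7% of Otor-high cells at P1 and 1.54% at P7, against 1.35% and 0.668% of glia. After thinning, the Otor-high shares were 6.81% and 0.349%, and the glia shares were 0.416% and 0.192%. The thinned P7 intervals overlapped (0.160% to 0.662% of Otor-high cells, 0.077% to 0.396% of glia), while those before thinning did not (1.11% to 2.09% and 0.433% to 0.984%). At P7, 3 Otor-high cells with 5 to 14 UMIs each held 37.0% of its 73 UMIs.

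Adh6 gave 1057 UMIs at P1 and 74 at P7, or 43.5 CPM (41.0 to 46.2) and 3.18 CPM (2.50 to 3.99), and the log2 ratio was -3.77 (-4.13 to -3.43). It was present in 12.7% of P1 and 2.56% of P7 Otor-high cells (thinned, 5.25% and 0.660%), against 1.35% and 0.828% of glia (thinned, 0.238% and 0.165%). The P7 intervals did not overlap before thinning (1.99% to 3.23% of Otor-high cells, 0.563% to 1.17% of glia). After thinning they did not overlap either (0.385% to 1.05% and 0.061% to 0.359%), so the P7 share of Otor-high cells stood above that of glia at equal depth. Reads of this gene can be shared with close relatives of its family, so its level is uncertain to that extent. Its relative Adh4 stood at 183 CPM at P1 and 165 CPM at P7 in the same cells.

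Isyna1 was lower at P7 but not gone. It gave 19297 UMIs at P1 and 3210 at P7, or 795 CPM (784 to 806) and 138 CPM (133 to 143), a log2 ratio of -2.53 (-2.58 to -2.47). Its share of Otor-high cells moved from 62.3% to 49.9% (thinned, 37.8% to 19.3%), while the share of glia was 24.5% and 24.4% (thinned, 8.45% and 9.26%). Most of the difference lay in cells with many UMIs of the gene. At P1, 371 Otor-high cells carried at least 15 Isyna1 UMIs and held 75.6% of its UMIs, and at P7 there were 15 such cells with 10.6%.

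The direction was not the same in every class, as the plot of levels by cell class shows. Gria2 was also lower at P7 in mesenchymal cells with little Otor (4.10 to 0.568 CPM, log2 -2.85, -3.78 to -2.03), in cells that met no class rule (-2.24, -3.19 to -1.41), in glia (-1.94, -2.63 to -1.27) and in the epithelial class (-1.38, -2.56 to -0.33). In endothelial cells Gria2 stood at 67.7 CPM (56.3 to 80.8) at P1 and 119 CPM (103 to 137) at P7, a log2 ratio of 0.82 (0.48 to 1.15). Nrgn there was 158 CPM (140 to 177) and 138 CPM (121 to 157), with a log2 ratio of -0.19 whose interval included 0 (-0.45 to 0.07). Isyna1 in endothelial cells was 126 CPM (110 to 144) and 232 CPM (209 to 256), a log2 ratio of 0.88 (0.64 to 1.12). Adh6 had 3 UMIs in P1 and 1 UMI in P7 endothelial cells (log2 ratio -1.44, -7.16 to 2.20). Endothelial cells held 4.51% of the Gria2 UMIs of the P1 library and 59.9% of those of the P7 library, while the Otor-high share went from 69.2% to 18.0%.

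**Figure D1:**
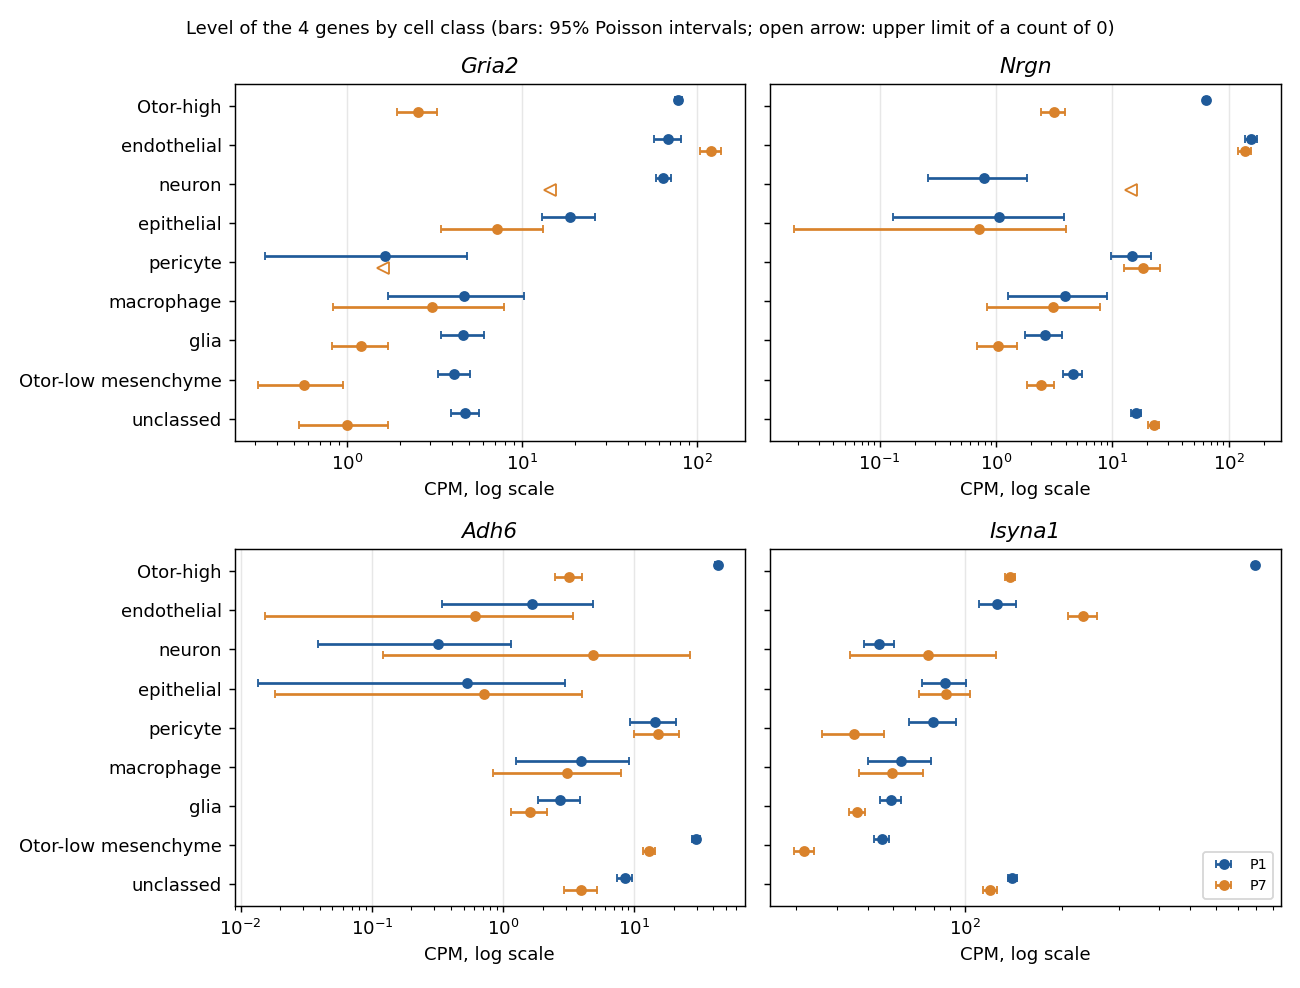
Level of each gene (CPM, log scale) in each cell class at P1 (blue) and P7 (orange), with bars for 95% Poisson intervals of the summed UMIs and an open arrow for the upper limit that a count of 0 allows. In Otor-high cells Gria2 stood at 77.8 CPM at P1 and 2.54 CPM at P7, while in endothelial cells it stood at 67.7 and 119 CPM.

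Adh6 showed a different spread over the classes. Mesenchymal cells with little Otor had 29.6 CPM at P1 and 12.95 CPM at P7, the next highest summed level after Otor-high cells at P1, and the interval of the ratio between those classes excluded 0 (log2 0.56, 0.42 to 0.70). By share of cells the order was the opposite, with Adh6 in 15.98% of those mesenchymal cells and 12.7% of Otor-high cells at P1. After thinning the shares were 5.77% (4.94% to 6.71%) and 5.25% (4.50% to 6.08%). These intervals overlapped, so no order by share can be read at equal depth. Pericytes held 14.3 and 15.1 CPM. At P7 the Otor-high level of 3.18 CPM was below both of these. Nrgn in cells that met no class rule was 16.01 CPM at P1 and 22.7 CPM at P7, a log2 ratio of 0.50 (0.28 to 0.72).

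Neurons, the cells in which Gria2 and Nrgn are best known, carried Gria2 at P1 and nearly no Nrgn. A neuron here had a UMI of at least 8 of 10 neuron markers, a limit set after the data were seen. Among the 309 neurons of P1 (median 20700 UMIs), Gria2 had 402 UMIs, or 64.0 CPM (57.9 to 70.5), and was present in 68.6% of cells, which became 10.8% after thinning. The log2 ratio of Otor-high cells to neurons was 0.28 (0.13 to 0.44), but it turned to -0.36 when Otor-high cells were taken from 0.5% Otor and came to 0.076 when cells over 10% mitochondrial UMIs were left out. No order of the pair in Gria2 can be read from these values. Nrgn had 5 UMIs in the P1 neurons (0.80 CPM, 0.26 to 1.86), a log2 ratio of Otor-high cells to neurons of 6.34 (5.12 to 7.97). Adh6 had 2 UMIs (0.32 CPM, 0.04 to 1.15), and its log2 ratio was 7.10 (5.24 to 10.14). Isyna1 stood at 54.1 CPM in neurons, and its log2 ratio was 3.88 (3.72 to 4.04). Under the rule used first, which asked for 4 markers, 385 neurons of P1 gave 59.9 CPM of Gria2, 1.43 of Nrgn, 1.14 of Adh6 and 63.0 of Isyna1.

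The P7 neuron class could not serve as a reference. It held 18 cells, all of which also met the rule for glia, with the neuron marker Stmn2 at 558 CPM against 3438 CPM in P1 neurons. Gria2 was not detected among its 207820 UMIs, and a count of 0 allows up to 14.4 CPM. At P1, 204 of the 309 neurons also met the glia rule. In Otor-high cells Stmn2 was at 26.5 CPM at P1, so that Gria2 had 293 UMIs for every 100 of Stmn2, against 1.86 in neurons.

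The level at P1 also moved with the Otor share of a cell, shown in the plot of levels by Otor share. Gria2 was 18.2 CPM in the 348 P1 cells just under the limit (0.9% to 1% Otor) and 16.1 CPM in the 305 cells just over it (1% to 1.1%). It was 30.9 CPM from 1.1% to 1.5%, 87.2 CPM from 1.5% to 2%, 155 CPM from 2% to 3% and 199 CPM above that. Isyna1 went from 194 CPM just under and 257 CPM just over the limit to 1964 CPM above 3%. Adh6 went from 15.9 and 14.2 CPM to 77.3 CPM. Nrgn was 17.9 and 28.4 CPM around the limit, 98.5 CPM from 2% to 3% and 59.9 CPM above 3%. At P7 the Gria2 level lay between 0.54 and 3.39 CPM in every interval from 0.9% upward, and Isyna1 went from 97.9 to 194 CPM over the same intervals, so cells of matched Otor share also differed between the ages.

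**Figure D2:**
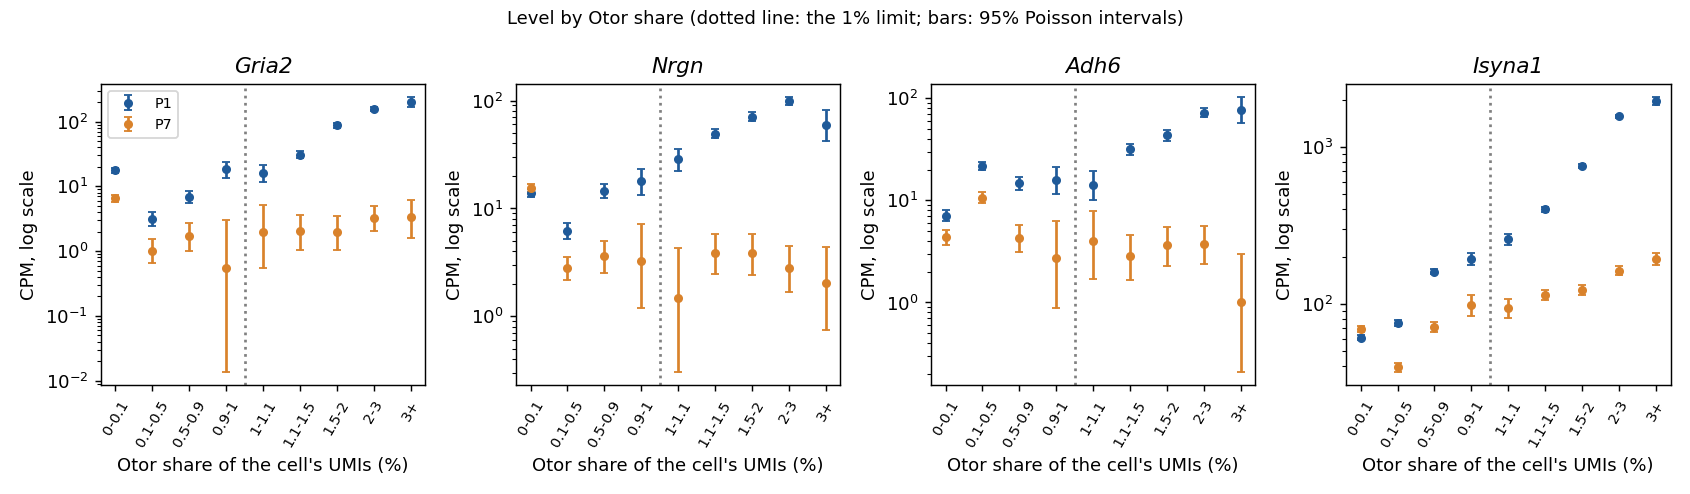
Level of each gene (CPM, log scale) in cells grouped by the Otor share of their UMIs (%), at P1 (blue) and P7 (orange), with 95% Poisson intervals and a dotted line at the 1% limit. P1 Gria2 went from 16.1 CPM just over the limit to 199 CPM above 3% Otor, while P7 Gria2 was at most 3.39 CPM from 0.9% upward.

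The genes were found in the same P1 cells more often than their single shares give. Gria2 and Nrgn shared 214 P1 Otor-high cells where the product of their shares gives 60.1, with an odds ratio of 10.8 (8.79 within 3 classes of depth). Gria2 and Adh6 also shared 214 cells, where 60.4 would be given, with an odds ratio of 10.7 (9.76 within depth classes). Of the cells with Gria2, 93.5% also had Isyna1, and the odds ratio of that pair was 10.8 (9.58). The remaining pairs had odds ratios of 6.23 (Nrgn and Adh6), 6.40 (Nrgn and Isyna1) and 3.90 (Adh6 and Isyna1). These values were lower within subsets of the Otor-high cells. Inside the cluster highest in Gria2 (P1-4, described with the clusters), the odds ratio was 2.96 for Gria2 and Nrgn, 2.64 for Gria2 and Adh6 and 3.11 for Nrgn and Adh6. In the remaining cells those pairs gave 5.94, 4.78 and 2.48, and Isyna1 gave 3.79 with Gria2, 3.68 with Nrgn and 1.97 with Adh6.

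At least 3 of the 4 genes were present in 305 P1 Otor-high cells, or 9.48% (Clopper-Pearson interval 8.49% to 10.5%), where the product of shares gives 3.13%. Of these, 224 were cells of cluster P1-4 (62.9% of its 356 cells) and 81 lay outside it (2.83% of 2862). All 4 were present in 136 cells, against 4.77 from the product. After thinning, 4.22% of cells had at least 3 of the genes, against 0.522% from the product. At P7, 7 of 2660 Otor-high cells had at least 3 (0.263%) and 0 had all 4, which allows a share of up to 0.113%. With 4 P7 cells for Gria2 and Nrgn together and 1 for Nrgn and Adh6, the P7 odds ratios carry little information.

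**Figure D3:**
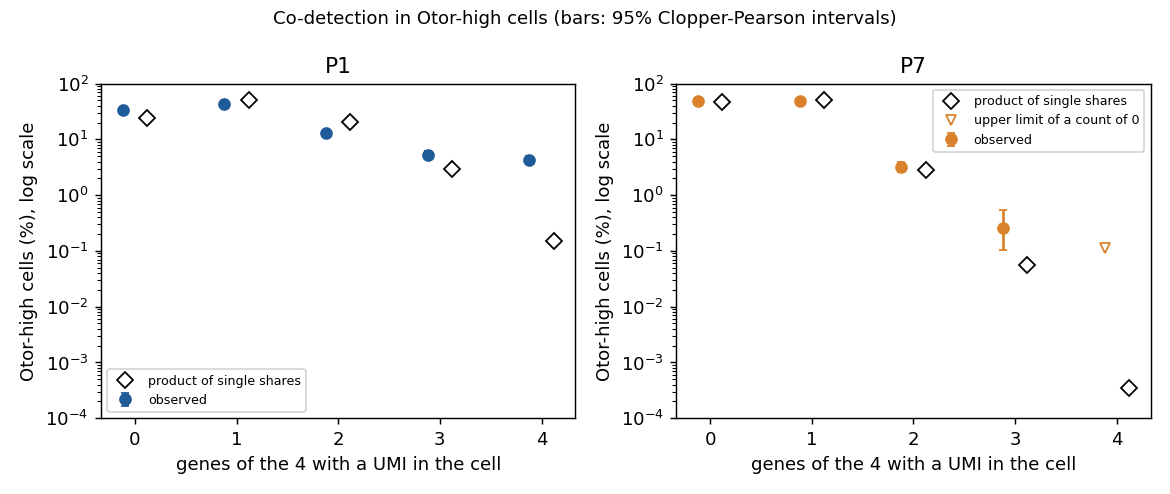
Share of Otor-high cells (%, log scale) with 0 to 4 of the genes at P1 and P7, as observed (filled points, 95% Clopper-Pearson intervals) and as the product of the single shares gives (open diamonds), with an open triangle for the upper limit of a count of 0. At P1, 136 cells had all 4 genes where the product gives 4.77, and at P7 there were 0.

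Much of the P1 signal sat in a minority of the Otor-high cells. Clustering the P1 Otor-high cells on other genes, with 209 listed genes left out, these 4 among them, gave 10 clusters, and the one highest in Gria2 (cluster P1-4) held 356 cells, 11.1% of the total. Gria2 was 492 CPM there (468 to 518) and present in 82.6% of cells, and the cluster held 78.5% of the Gria2 UMIs of P1 Otor-high cells. It held 57.4% of the Nrgn UMIs (299 CPM), 69.1% of the Adh6 UMIs (242 CPM) and 62.8% of the Isyna1 UMIs (4024 CPM), and every one of its cells had Isyna1. The other 2862 P1 Otor-high cells were at 19.1 CPM of Gria2, 31.5 of Nrgn, 15.4 of Adh6 and 337 of Isyna1. Set against all P7 Otor-high cells, those others gave log2 ratios of -2.91, -3.33, -2.27 and -1.29, smaller falls than with the cluster included but in the same direction.

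Cells of P1-4 had a median of 7967.5 UMIs, and 2.25% of them were called doublets, against 4.10% of all P1 Otor-high cells. They were led by Mrap, an accessory protein of melanocortin receptors, Sbspon, a secreted matrix protein, and Mia, a relative of Otor, and next by the microtubule protein Map2. These leading genes, named after their values were seen, describe the cluster and are no test of it. Coch was 945 CPM in the cluster, S100b 3243 CPM and Otos 392 CPM, against 265, 1268 and 126 CPM over all P1 Otor-high cells. The neuron list summed to 70.7 CPM, below the 94.9 CPM of all P1 Otor-high cells. Of the 20 leading genes 18 were tested between the ages over all Otor-high cells. By a log2 ratio of at least 1, 7 were lower at P7 and 0 higher, where 5.28% of all tested genes were lower. Their median log2 ratio was -0.86. Among the leading genes the log2 ratio was -3.56 for Igfbpl1, -3.27 for Nap1l5, -2.68 for Sbspon, -1.99 for Map2, -1.01 for Mrap, 0.82 for Mia and 0.33 for the amino acid transporter chain Slc3a2. This is a description, since being high in a P1 cluster helped choose them.

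No P7 cluster came near these levels. The highest P7 values among 11 clusters were 9.43 CPM for Gria2 and 8.75 CPM for Adh6, both in the cluster led by Calb2, 20.2 CPM for Nrgn in a cluster of dividing cells, and 280 CPM for Isyna1 in a cluster led by Cav1 and Fn1. At P1, Nrgn was high in further clusters, with 164 CPM in the one led by C1qb and its partner complement genes and 78.7 CPM in the dividing one led by Top2a. In the C1qb-led cluster Gria2 was 77.4 CPM and Adh6 11.8 CPM. The 8 macrophage markers summed to 888 CPM there, a sum over its cells. Over all P1 Otor-high cells, at least 2 macrophage markers were present in 12 of the 2005 with Isyna1 and 3 of the 1213 without it. Isyna1 was 1125 CPM in the cluster led by Slc38a5 and Srgn, where Gria2 was 21.2 CPM.

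**Figure D4:**
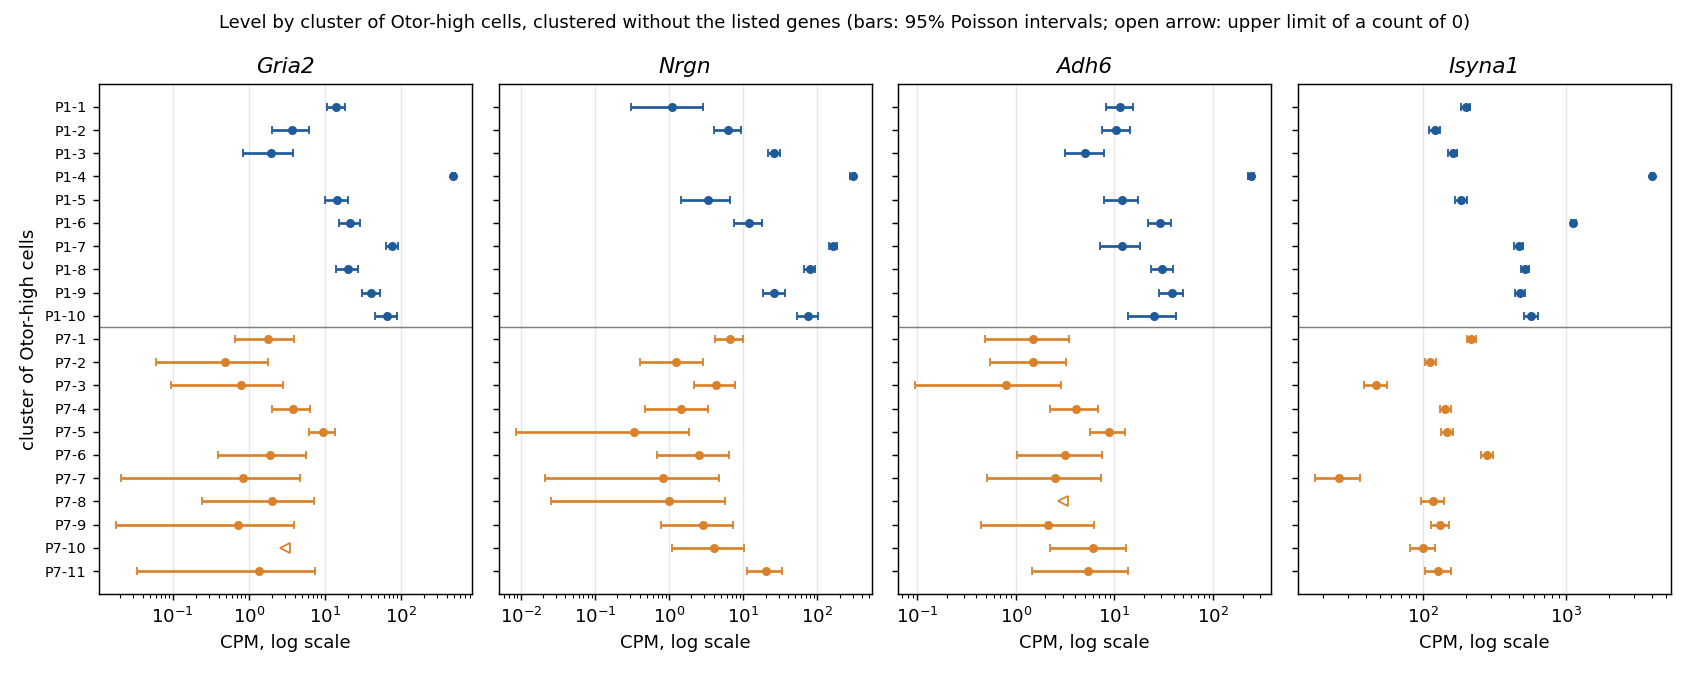
Level of each gene (CPM, log scale) in the 10 clusters of P1 (blue) and the 11 clusters of P7 (orange) Otor-high cells, with 95% Poisson intervals and an open arrow for the upper limit of a count of 0. Cluster P1-4 was highest for all 4 genes, with Gria2 at 492 CPM and Isyna1 at 4024 CPM.

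The members also went with Coch at P1, but not with Coch alone. Coch was itself among the leading genes of cluster P1-4, with 945 CPM there against 168 CPM in the other P1 Otor-high cells. In the 1325 P1 Otor-high cells with a Coch UMI, Gria2 was 179 CPM (171 to 187), Nrgn 132 CPM, Adh6 91.0 CPM and Isyna1 1652 CPM. In the 1893 cells without one they were 3.44 CPM (2.53 to 4.55), 15.1 CPM, 8.52 CPM and 163 CPM. At P7 Gria2 was 3.47 CPM with and 2.07 CPM without a Coch UMI, Nrgn 7.71 and 0.84 CPM, Adh6 2.57 and 3.49 CPM, and Isyna1 159 and 127 CPM. Car3, a carbonic anhydrase, was at 7.25 CPM at P1 and 338 CPM at P7. In the 75 P1 cells with a Car3 UMI, Gria2 was 34.5 CPM, Nrgn 4.50 CPM (3 UMIs), Adh6 24.0 CPM and Isyna1 448 CPM, and in the other 3143 cells they were 79.1, 66.3, 44.1 and 805 CPM. By other genes at P1, Gria2 was 245 CPM with and 60.9 CPM without an Otos UMI. It was 92.0 and 5.54 CPM for S100b, and 87.5 and 4.60 CPM for Col9a2. Cldn5 went the other way, with Gria2 at 22.9 CPM with and 92.7 CPM without a Cldn5 UMI.

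Markers of other cell types were measured beside these values, and several lists differed between the ages in Otor-high cells. From P1 to P7 the neuron list went from 94.9 to 26.4 CPM, the glia list from 62.6 to 385 CPM, the endothelial list from 433 to 709 CPM (Emcn alone 415 and 655 CPM), the erythroid list from 283 to 656 CPM, the pericyte list from 17.8 to 35.4 CPM and the macrophage list from 69.3 to 76.8 CPM. No gene of these lists that the tables hold was at 0 at either age. In P1 Otor-high cells with at least 3 members, the 8 macrophage genes summed to 410 CPM, against 26.8 CPM in cells with no member, and the 4 erythroid genes found in the tables summed to 1493 against 72.0 CPM. None of the 8 macrophage genes was at 0, and the levels in those cells ran from 9.23 CPM (Cd68) to 115 CPM (C1qb). These sums pool UMIs over cells, and few cells had at least 2 macrophage markers. At P1 they were 5 of the 474 Otor-high cells with Gria2 and 10 of the 2744 without it. The counts were 4 of 408 and 11 of 2810 for Nrgn, and 4 of 410 and 11 of 2808 for Adh6. For Isyna1 they were 12 of 2005 and 3 of 1213. In cluster P1-4 the macrophage list summed to 6.97 CPM, and the erythroid list to 492 CPM. The neuron list summed to 69.6 CPM in cells with at least 3 members and 110 CPM in cells with none, and the endothelial list to 132 and 448 CPM. Of the 47 P7 Otor-high cells with Gria2, 22 (46.8%) had at least 2 endothelial markers, against 20.4% of the cells without it. The cells with Gria2 were deeper, with a median of 9930 UMIs against 8145. The same shares were 19.5% and 20.9% for Nrgn, and 38.2% and 20.4% for Adh6. For Isyna1 they were 330 of 1327 cells with it and 226 of 1333 without it. In P7 endothelial cells Nrgn stood at 138 CPM and Adh6 at 0.608 CPM. At P7, Gria2 had 9.23 UMIs per 100 of the endothelial gene Plvap in Otor-high cells and 7.87 in endothelial cells. Nrgn had 11.4 and 9.12. Per 100 UMIs of Cdh5, another endothelial gene, Gria2 had 41.3 and 19.6 and Nrgn 51.0 and 22.7. At P1, Gria2 had 1575 UMIs per 100 of Plvap in Otor-high cells and 5.56 in endothelial cells. The part of RNA from these other cell types in the members' levels, or in their change with age, was not tested.

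For each member, the 5 genes with the largest log2 ratio between P1 Otor-high cells with and without it were drawn from all genes. Cells with Gria2 had most in excess Adh6 (195 against 12.6 CPM), Nrgn (275 against 21.8 CPM), Isyna1 (3137 against 317 CPM), Mrap (99.2 against 6.05 CPM) and Sbspon (76.6 against 3.67 CPM), so that the other members took the first 3 places. Gria2 was also first for each of the other 3 members. For Nrgn it was followed by Adh6, the lysozyme gene Lyz2, C1qb and the globin Hba-a2, and for Adh6 by C1qb, Sbspon, Nrgn and C1qa. For Isyna1 it was followed by Nrgn, Adh6, Srgn and Sbspon. The levels of Lyz2, C1qb and C1qa are sums over cells. At least 2 macrophage markers were present in only 4 of the 408 cells with Nrgn and 4 of the 410 with Adh6.

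The members' levels were also set side by side over the 17 combinations of class and age with at least 50 cells. Pearson's r of log2(CPM + 5) was 0.58 between Gria2 and Nrgn, 0.61 between Gria2 and Isyna1 and -0.17 between Gria2 and Adh6, and points of 1 age share a library. The genes most like each member among 11780 were others. Gria2 was most like LOC103690141 (0.88), followed by Jag2, Ica1, Lrp8 and Zfp521. Nrgn was most like Arl4a (0.89), with Heg1, Abcg2, Fam13c and Cav1 next. Adh6 was most like Meox2 (0.87), followed by Zic4, Col6a2, Col6a1 and Mns1, and Isyna1 was most like Lmcd1 (0.71), followed by Msi2, Maob, Tle6 and Fat4.

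Gria2 did not move with the whole AMPA receptor family. All 4 subunit genes were tested in Otor-high cells, 2 were lower at P7 and 0 higher. Gria1 went from 10.9 to 2.62 CPM (log2 -2.05, -2.48 to -1.65), Gria3 from 64.5 to 75.5 CPM (0.23, 0.13 to 0.33) and Gria4 from 99.2 to 73.3 CPM (-0.44, -0.53 to -0.35). Gria2 accordingly made up 30.8% of the UMIs of the 4 subunits in P1 Otor-high cells and 1.65% at P7, while it made up 76.9% and 83.8% in endothelial cells and 41.8% in P1 neurons. These shares are of 3' UMIs and are compared across cells, not between subunits. P1 Otor-high cells with Gria2 had Gria3 at 101 CPM and Gria4 at 53.8 CPM, and those without had 57.0 and 108 CPM.

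**Figure D5:**
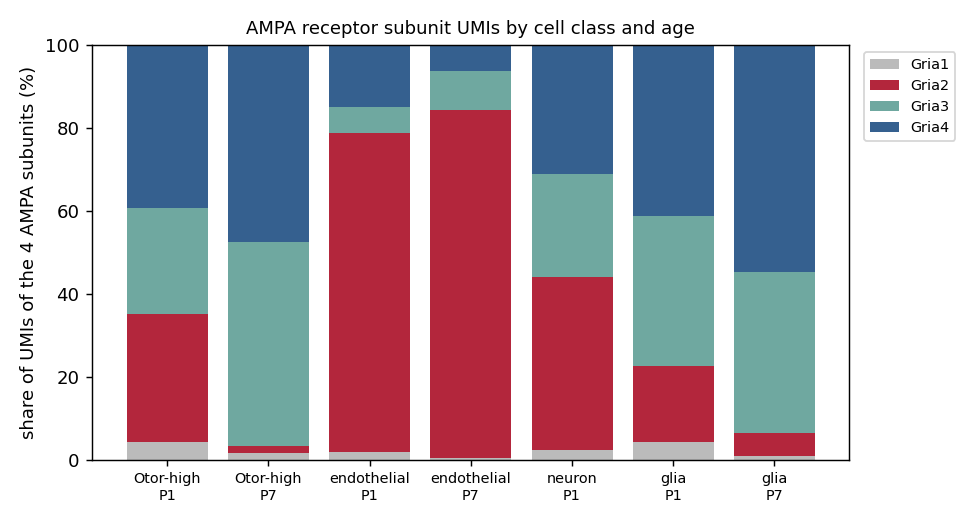
Share (%) of the UMIs of Gria1, Gria2, Gria3 and Gria4 taken by each subunit gene, by cell class and age. The Gria2 share in Otor-high cells was 30.8% at P1 and 1.65% at P7, and it was 76.9% and 83.8% in endothelial cells.

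The other genes of the members' pathways were counted at the same fold, which 5.28% of all tested genes passed downward and 11.2% upward. The members themselves are among the counts and the lists are small, so nothing particular to a list is read from them. Of the AMPA receptor partners, 5 of 24 were tested, and Olfm1, which encodes a secreted olfactomedin, was lower (93.5 to 41.8 CPM) and its relative Olfm2 higher (6.47 to 39.5 CPM), while Cnih2, an AMPA receptor chaperone, was at 105 and 103 CPM. In the list of other glutamate receptors 1 of 14 genes was tested, Grik5, with 14.9 and 24.0 CPM. In the neurogranin and calmodulin list 8 of 17 genes were tested and Nrgn was the one lower gene among these, with Calm2 at 701 and 777 CPM and Gap43, the related calmodulin-binding protein of growth cones, at 63.6 and 36.8 CPM. Pcp4, a calmodulin-binding protein under the 10 CPM minimum, went from 79 to 5 UMIs (log2 -3.92, -5.58 to -2.64). Of the alcohol dehydrogenases 2 of 6 were tested and Adh6 was lower, while Adh6a, also under the minimum, went from 19 to 2 UMIs (-3.19, -6.33 to -1.13). Of the retinoid and aldehyde genes 10 of 17 were tested, 0 were lower and the retinol carrier Rbp4 was higher (3.46 to 47.6 CPM). In the inositol list 9 of 17 were tested, Isyna1 was lower, and Impa1, which takes the phosphate off the product of Isyna1, was higher (19.4 to 42.3 CPM).

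The fibrocyte list was mixed. It had 9 of 10 genes tested, 0 lower and 3 higher by that fold, where 11.2% of all tested genes were higher, and its median log2 ratio was 0.53, beside 0.17 for all genes. The higher genes were Otos, a secreted fibrocyte protein (126 to 1111 CPM), Car3 (7.25 to 338 CPM) and the collagen gene Col9a2 (1100 to 2335 CPM). Coch went from 265 to 151 CPM (log2 -0.81, -0.87 to -0.75), Slc12a2, a sodium, potassium and chloride cotransporter, was at -0.22 and Crym at -0.16. Otor itself, which chose the cells, was at 16855 and 19922 CPM.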

How the data were processed

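Gene counts of 2 single-cell libraries of rat cochlear duct, 1 at P1 and 1 at P7, were used as deposited. The authors made these counts of UMIs per gene and cell with Cell Ranger (3.1.0 in the file headers) against the rn6 assembly, from 10x 3' libraries, and the submitters' notes also name bcl2fastq and Seurat 3.1.1. Barcodes stayed in the analysis where the number of genes lay between 500 and 5000, the number of UMIs was 500 or higher and mitochondrial genes took less than 25%. The P1 and P7 libraries held 114285848 and 101264868 UMIs. Scrublet called 622 (4.87%) and 775 (6.16%) kept cells doublets, which stayed in. Mean levels are UMIs summed over a class per 1000000 UMIs of that class (CPM), so a cell of high depth weighs more.

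Cells with Otor at 1% of UMIs or more were taken first. Of the rest, a neuron needed 8 of 10 markers and other classes 4 of their markers. The limit of 8 was set after Gria2 values under a limit of 4 had been seen, from the counts of markers per cell (91 P1 cells with 4 markers, 20 with 7, 157 with 9). The members and all gene lists were chosen with earlier results of these data known. Named genes are the 4 members, genes of the lists with at least 10 CPM, and 5 genes per member by correlation over classes and 5 by the ratio between cells with and without it (pseudocount 5 CPM). The ratios between ages are given with exact conditional 95% intervals, levels with exact Poisson intervals and shares with Clopper-Pearson intervals. All cover counting error only, and with no replicate library no test was made. The floor for a count of 0 is 3 counts. Depth was thinned to 2000 UMIs per cell. P1 and P7 Otor-high cells were clustered apart with scanpy 1.11.5 (2000 variable genes, 10 components, 20 neighbours, resolution 0.5). The ratio and odds ratio code was checked on simulated counts. Promoter sequences are from RefSeq (GRCr8), another assembly than that of the counts.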

Additional observations from a re-analysis of the deposited data

Results flagged for a closer look

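In Otor-high cells all 4 genes were lower at P7. They were also lower in mesenchymal cells with little Otor, with log2 ratios of -2.85 (Gria2), -0.91 (Nrgn), -1.19 (Adh6) and -0.80 (Isyna1). Further falls in glia and other classes are given above. Against these, 3 values in other classes were higher at P7 with a counting interval that excluded 0. In endothelial cells the log2 ratio of P7 to P1 was 0.82 for Gria2 (154 and 178 cells) and 0.88 for Isyna1. In cells that met no class rule it was 0.50 for Nrgn. Each age is 1 library, so the difference in direction between classes was not tested.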

How the results depend on the processing

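No paired analysis was possible because each age has 1 library and no test was made, and no replicate could be left out. The log2 ratio of P7 to P1 in Otor-high cells stayed below 0 for the 4 genes under all 40 alternatives run, from -5.59 to -1.29. With Otor at 0.5% or more it was -4.51 for Gria2, -3.77 for Nrgn, -3.20 for Adh6 and -2.21 for Isyna1, and with Otor at 2% or more -5.59, -5.20, -4.66 and -3.22. Without cluster P1-4, a choice made after seeing the data, it was -2.91, -3.33, -2.27 and -1.29. For Nrgn it was -4.74 without called doublets and -4.83 after thinning. For Isyna1 it was -2.43 with all deposited barcodes, -2.42 with mitochondrial UMIs under 10%, -2.47 without doublets, -2.61 on a total without mitochondrial, ribosomal, globin and Otor UMIs and -2.43 as a mean of CPM per cell. The log2 ratio of P1 Otor-high cells to neurons reversed for Gria2 with Otor at 0.5% (-0.36), was 1.32 with Otor at 2% and 0.076 with mitochondrial UMIs under 10%. For Isyna1 it was 3.32 and 4.89 at those Otor limits, 3.67 with 7 neuron markers and 3.66 with the 4-marker rule used first, which was added after seeing the data. Odds ratios moved for Gria2 and Adh6 (7.64 at 2% Otor, 7.55 thinned), Gria2 and Isyna1 (20.3 thinned), Nrgn and Adh6 (4.79 at 0.5% Otor) and Adh6 and Isyna1 (2.60 at 0.5% Otor, 5.76 thinned). A minimum of 50 CPM in place of 10 tested 3135 genes and gave 112 lower and 248 higher, against 416 and 884. On a total without mitochondrial, ribosomal, globin and Otor UMIs, 8784 genes were tested, with 599 lower (6.82%, against 5.28%) and 905 higher. With Otor at 2% or more, 437 of 7698 genes were lower and 968 higher. The cause of these moves was not tested, except that a higher minimum tests fewer genes. At other cluster resolutions (0.3 and 1, added after seeing the data), the cluster highest in Gria2 held 73.5% to 81.6% of its P1 UMIs.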
